A study of Mus musculus with 6 samples.

Results

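The leukocyte integrins described here are the 9 subunit genes Itgal, Itgam, Itgax, Itgb2, Itga4, Itga6, Itgb1, Itgb7 and Itgb3, and with them Vcam1, a ligand that some of them bind. They were found by gene symbol in a table of 46983 genes, as 11 rows for 10 symbols because Itgam heads a pair of rows. All 10 genes had enough reads to enter the comparison, as did 13705 genes of the whole table. RNA came from mouse leukemia cells that carry MLL-AF9, a fusion oncogene of acute leukemia that was delivered here by retrovirus, with 3 libraries of genotype Alox5-/- and 3 of genotype WT, all on C57BL/6J and all untreated. Alox5 encodes 5-lipoxygenase, which begins leukotriene synthesis. Per the labels, bone marrow cells sorted as Lin-Sca-1+c-Kit+ were the ones transduced, GFP+ cells were given to irradiated C57BL/6J recipients, and the samples were collected by flow sorting. The libraries held 28985597 to 38695948 reads assigned to genes. Both genotypes carry the fusion, so untransformed marrow is no part of the comparison. The labels name the libraries biological replicates but tie them to no animal, and each genotype is given as 1 cell line, so the tests measure the spread between these libraries only.

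Integrins are adhesion receptors made of 1 alpha and 1 beta chain, and a chain needs its partner to reach the cell surface. Itgb2 is the shared beta chain of the leukocyte-specific receptors, in which it pairs with Itgal (LFA-1), Itgam (Mac-1, CD11b) or Itgax (CD11c). Itga4 pairs with Itgb1 to form VLA-4 or with Itgb7 to form a gut-homing receptor, and VLA-4 binds Vcam1, which stromal and endothelial cells of the marrow display and by which blood progenitors and leukemia cells are held there. Transcript counts measure none of these proteins or pairings.

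In mm10 coordinates from GENCODE vM21, the leukocyte-specific chains lie as Itgal at chr7:127296260-127335138, Itgam at chr7:128062640-128118491, Itgax at chr7:128129547-128150657 and Itgb2 at chr10:77530252-77565708, all on the plus strand. The chains of the VLA and related receptors lie as Itga4 at chr2:79255426-79333123, Itga6 at chr2:71745616-71858416, Itgb1 at chr8:128685654-128733200 and Itgb3 at chr11:104608000-104670476 on the plus strand and Itgb7 at chr15:102215995-102231944 on the minus strand. Vcam1 at chr3:116109949-116129688 is also on the minus strand.

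Itgam and Itgax are neighbours on chromosome 7, at a distance of 11056 bases from the end of Itgam to the start of Itgax. They moved in opposite directions between the genotypes. Their promoters are shown for that reason. The 250 bases before each RefSeq start, read 5′ to 3′ on the plus strand, are from build GRCm38.p6, the assembly that mm10 names. They lie at chr7:128062390-128062639 for Itgam and chr7:128129300-128129549 for Itgax. The Itgax window runs slightly past the GENCODE start given above, and positions below count from the RefSeq start. Capitals mark matches to any of 4 short motifs on either strand: the PU.1 core GAGGAA, the GC box GGGCGG bound by Sp1, the AP-1 element TGAGTCA or TGACTCA, and the Runx core TGTGGT.
Itgam: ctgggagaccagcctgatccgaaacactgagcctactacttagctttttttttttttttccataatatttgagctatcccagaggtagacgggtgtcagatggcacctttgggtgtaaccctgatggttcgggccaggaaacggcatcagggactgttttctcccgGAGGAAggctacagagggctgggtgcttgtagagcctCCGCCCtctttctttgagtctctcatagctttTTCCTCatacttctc
Itgax: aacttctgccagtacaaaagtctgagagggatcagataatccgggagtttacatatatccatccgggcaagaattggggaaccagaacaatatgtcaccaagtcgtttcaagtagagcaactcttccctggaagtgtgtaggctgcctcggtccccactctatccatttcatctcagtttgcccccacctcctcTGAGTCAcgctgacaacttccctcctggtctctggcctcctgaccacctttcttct

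The Itgam window held 2 PU.1 cores, from 84 to 79 and from 15 to 10 bases before the start, and 1 GC box from 47 to 42. The Itgax window held none of these, and had 1 AP-1 element from 56 to 50 bases before the start. No marked match overlapped another. Of 32851 promoter windows of this length, 23.3% held a PU.1 core, 32.7% a GC box, 4.46% an AP-1 element and 14.0% a Runx core. Promoters of 3 further members were matched, for 5 of the 10 genes in all. Itga4 held 1 GC box and 1 Runx core, Itgb1 held 1 PU.1 core and 1 GC box, and Itgb7 held none of the motifs. These matches describe letters, not bound sites.

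Of the 10 genes, 6 were higher in Alox5-/- cells, 2 were lower and 2 did not pass the test. Calls are from the quasi-likelihood test of edgeR, with adjusted p under 0.05 over all tested genes. Read against the whole table, where the test called 53.8% of genes (26.8% as higher and 27.0% as lower), the 8 called members of 10 sit within a broad difference between the genotypes. The libraries of the genotypes did not overlap for 9 of the 10 genes, against 60.0% of all tested genes. The median log2 fold change of the members was 0.23, beside 0.00 for all tested genes. Vcam1 was the 51st highest of all 13705 log2 fold changes, Itgax the 331st and Itgb3 the 506th. The other called members changed by 1.12 to 1.28-fold. Levels are in CPM, the reads of a gene divided by the TMM-scaled size of its library. Alox5 itself was 65.6, 62.1 and 64.9 CPM in the Alox5-/- libraries and 102, 106 and 106 CPM in WT. Its log2 fold change was -0.70 (SE 0.04; edgeR adjusted p = 7.65e-10). Reads from Alox5 were thus fewer but still present in the libraries labelled Alox5-/-, and since the deleted stretch is not described in the labels, counts over the whole gene are a limited check of them.

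**Figure D1:**
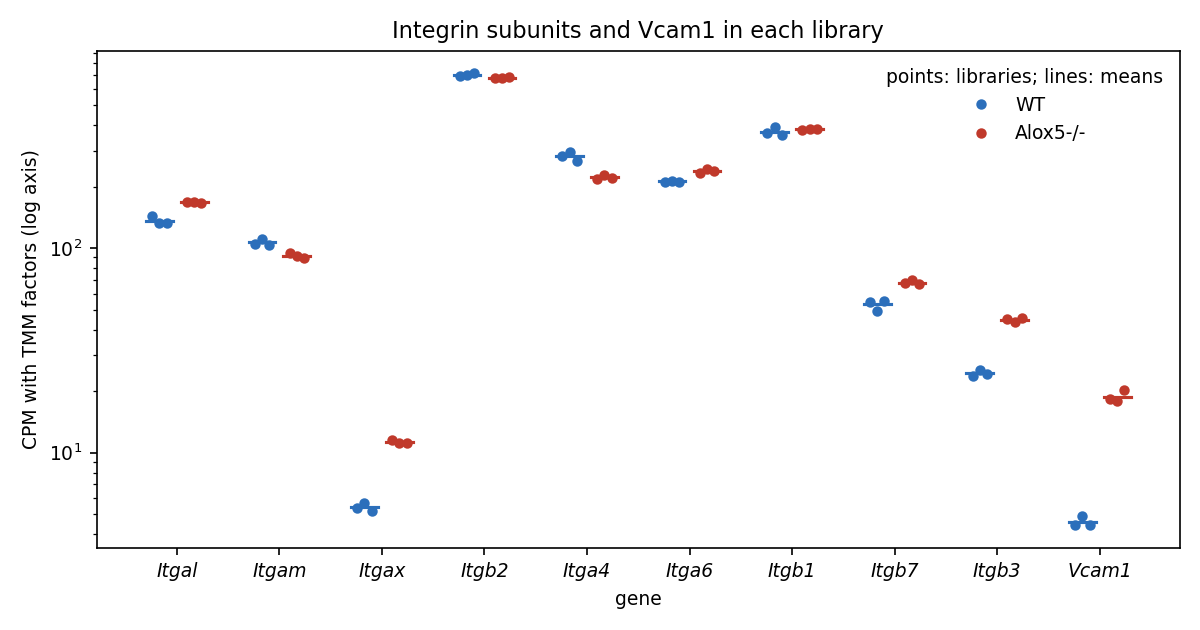
Expression of each gene in every library, as CPM (read counts scaled by library size and TMM factors) on a log axis, with points for libraries and short lines for means of the 3 libraries of a genotype. Vcam1, Itgax and Itgb3 stand well apart between the genotypes, and Itgb2 and Itgb1 lie almost level.

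The genes that encode the leukocyte-specific receptors differed in their alpha chains and hardly in the beta chain. Itgb2 was among the most abundant members and was 680, 679 and 687 CPM in the Alox5-/- libraries and 695, 698 and 715 CPM in WT. The genotypes did not overlap, with WT higher by a small amount. The log2 fold change was -0.04 (95% interval -0.11 to 0.02; edgeR adjusted p = 0.224), so the difference did not pass the test and any fall beyond 0.11 lay outside the interval.

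Itgal, the alpha chain of LFA-1, which binds Icam1 on other cells, was 168, 168 and 166 CPM in the Alox5-/- libraries and 144, 133 and 132 CPM in WT. The Alox5-/- libraries were nearly identical and all higher. Itgal rose by 0.30 on the log2 scale (SE 0.04; edgeR adjusted p = 6.55e-06).

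Itgam, the alpha chain of Mac-1, a receptor for complement fragments and fibrinogen that increases as granulocytes and monocytes mature, was 94.9, 91.0 and 89.7 CPM in the Alox5-/- libraries and 105, 111 and 104 CPM in WT. All Alox5-/- libraries were lower, without overlap. The log2 fold change was -0.21 (SE 0.04; edgeR adjusted p = 0.000211). The second row with the symbol Itgam has the identifier ENSMUSG00000108596.1 and is called Gm49368 in the GENCODE vM21 annotation. It is a gene model on the same strand that covers 3450 of the 5024 exonic bases of Itgam (68.7%). That row held only 11, 16 and 11 counts in Alox5-/- and 19, 15 and 26 in WT, and was not called (log2 fold change -0.54, SE 0.29; edgeR adjusted p = 0.129). With the 2 rows summed, the change of Itgam was called in the same direction.

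Itgax, the alpha chain CD11c of dendritic cells and some macrophages, had the largest difference among the 9 member subunits. It was 11.5, 11.2 and 11.1 CPM in the Alox5-/- libraries and 5.39, 5.69 and 5.16 CPM in WT. Every Alox5-/- library was far above every WT library. Itgax rose 2.08-fold, by 1.06 on the log2 scale (SE 0.08; edgeR adjusted p = 3.48e-08). The ratio of Itgax to Itgam within a library was 0.121, 0.123 and 0.123 in Alox5-/- and 0.0515, 0.0514 and 0.0496 in WT, in CPM over CPM. This ratio varied little among libraries of a genotype.

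The alpha chains were also set against each other per length, since a longer transcript gives more reads. By the length of all merged exons, Itgal made up 55.3 ± 0.582% of the Itgal, Itgam and Itgax pool in the Alox5-/- libraries and 48.2 ± 1.68% in the WT libraries (SD, n = 3 each). Itgam made up 39.6 ± 0.563% and 49.2 ± 1.60%, and Itgax 5.08 ± 0.0198% and 2.62 ± 0.0951%. By this length the Itgal and Itgam shares were close in WT, and in Alox5-/- Itgal exceeded Itgam. Each of the 3 shares separated the genotypes, and each had p = 0.1 in a two-sided exact permutation test (adjusted p = 0.1 over the 3), the smallest that 3 against 3 libraries can give. Which of Itgal and Itgam leads depends on the length used. The Gm49368 row held only 11 to 26 counts per library. By the vM21 exons, reads in the stretch that it shares with Itgam were thus not counted for both genes. If those reads went uncounted, the countable length of Itgam is 1574 bases, and the merged length gives Itgam too small a share. With such unshared lengths Itgam held 67.7 ± 0.512% in Alox5-/- and 75.6 ± 1.18% in WT, and Itgal 29.6 ± 0.505% and 23.2 ± 1.2% (SD, n = 3 each). Itgax was then 2.72% and 1.26%, and the Itgal share was again larger in Alox5-/-. Of the 3 genes Itgam had the lowest log2 fold change and Itgax the highest. The Itgam share is therefore smaller and the Itgax share larger in Alox5-/- under any length, and their agreement between lengths is no further evidence.

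**Figure D2:**
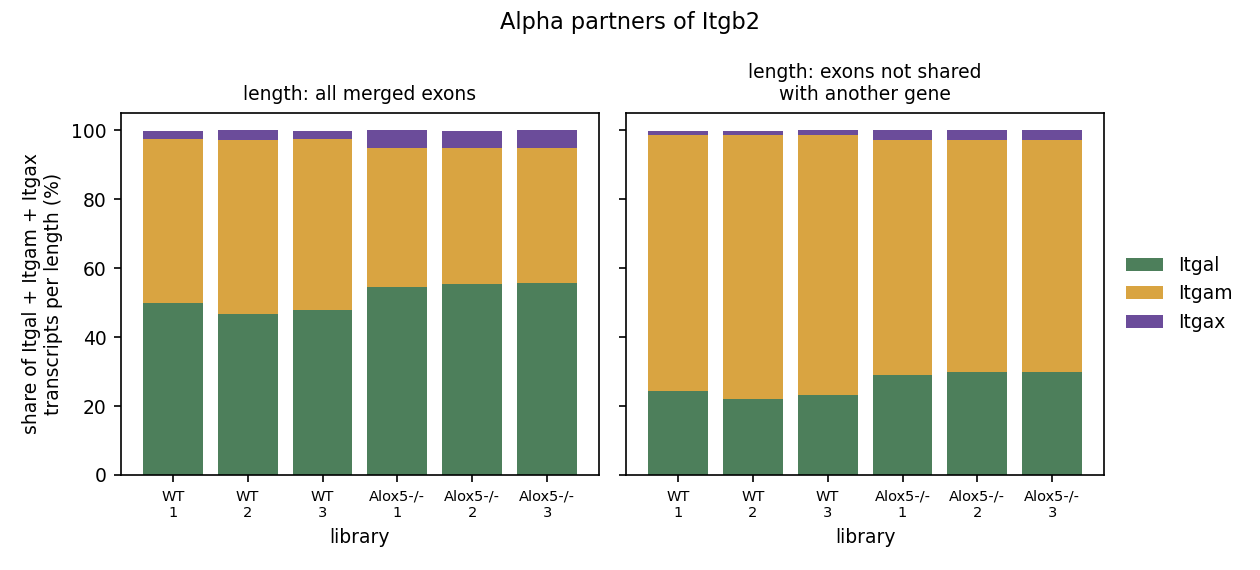
Stacked bars give the share of Itgal, Itgam and Itgax in their summed transcripts per length (percent) in each library, with merged exon length on the left and exons not shared with another gene on the right. In both panels, as under any length, the Itgam share is smaller and the Itgax share larger in the 3 Alox5-/- libraries.

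The chains of the VLA receptors also diverged from one another. Itgb1, the beta chain common to the VLA family, was 376, 382 and 384 CPM in the Alox5-/- libraries and 364, 393 and 357 CPM in WT. The WT libraries spanned those of Alox5-/-, with WT replicate 2 the highest of all 6. The log2 fold change was 0.03 (95% interval -0.04 to 0.11; edgeR adjusted p = 0.442). Without WT replicate 2 Itgb1 was called higher, with a log2 fold change of 0.08 (edgeR adjusted p = 0.0338), so its status rests on that library.

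Itga4, the alpha chain of VLA-4, was 218, 227 and 220 CPM in the Alox5-/- libraries and 282, 295 and 268 CPM in WT. All 3 Alox5-/- libraries were lower than every WT library, and the log2 fold change was -0.35 (SE 0.04; edgeR adjusted p = 1.70e-06). Its exons share 1124 of 13978 bases (8.04%) with Cerkl on the opposite strand, and Cerkl had 309 to 407 counts in the 6 libraries, far fewer than Itga4. The ratio of Itga4 to Itgb1, in CPM over CPM, was 0.579, 0.594 and 0.572 in Alox5-/- and 0.775, 0.750 and 0.751 in WT.

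Itgb7, the other beta partner of Itga4 and the chain that directs lymphocytes to gut vessels, went the opposite way. It was 67.3, 69.8 and 66.5 CPM in the Alox5-/- libraries and 54.5, 49.5 and 55.1 CPM in WT, with no overlap. Itgb7 rose by 0.35 on the log2 scale (SE 0.04; edgeR adjusted p = 1.03e-05). Of the Itgb1 and Itgb7 transcripts per length of merged exons, Itgb7 made up 20.9, 21.2 and 20.3% in Alox5-/- and 18.1, 15.7 and 18.5% in WT. Itgb1 thus remained the major beta transcript in all libraries.

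Itga6, the alpha chain of laminin receptors that is found on many stem and progenitor cells, was 233, 244 and 239 CPM in the Alox5-/- libraries and 211, 214 and 211 CPM in WT. It rose by 0.17 on the log2 scale (SE 0.03; edgeR adjusted p = 0.000318), the smallest of the called differences among the members. The lowest Alox5-/- library still exceeded the highest WT library.

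**Figure D3:**
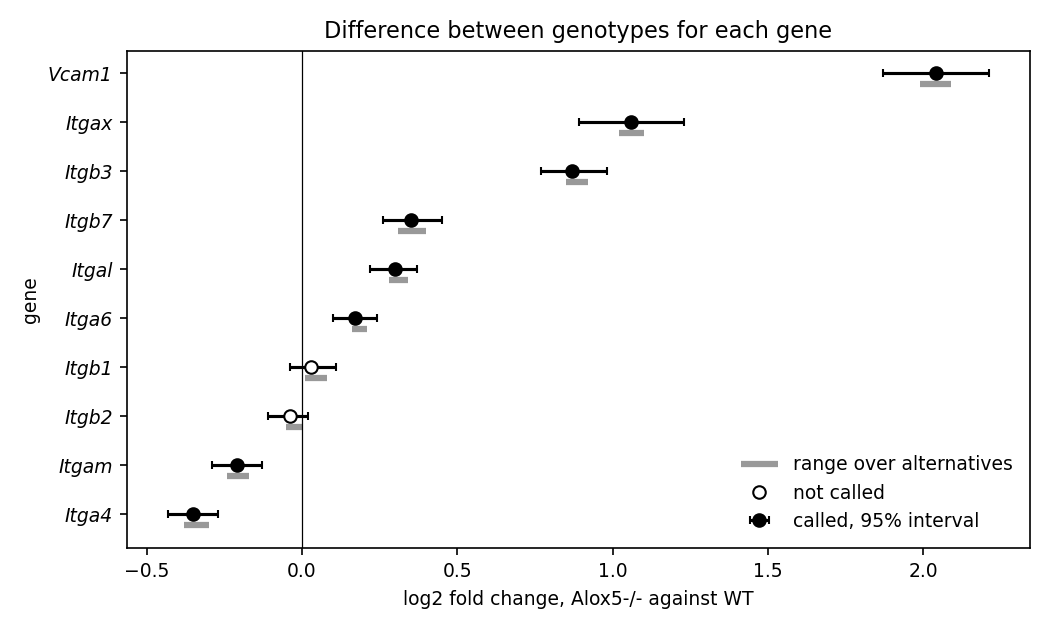
Log2 fold change of each gene, Alox5-/- against WT, with its 95% interval (black) and the range of its values over the processing alternatives (grey). Open circles mark Itgb2 and Itgb1, which were not called, and the intervals of the other 8 genes do not reach 0.

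Itgb3, the beta chain of the platelet fibrinogen receptor and of the vitronectin receptor, was 45.0, 43.4 and 45.5 CPM in the Alox5-/- libraries and 23.6, 25.5 and 24.2 CPM in WT. The groups were far apart for their spread, and Itgb3 rose 1.83-fold, by 0.87 on the log2 scale (SE 0.05; edgeR adjusted p = 1.82e-09). Its alpha partners did not move together. Itgav, the vitronectin receptor chain, was 72.3 ± 1.30 CPM in the Alox5-/- libraries and 57.8 ± 3.07 CPM in the WT libraries (log2 difference 0.33; edgeR adjusted p = 1.33e-05). Itga2b, the platelet and megakaryocyte partner, was 1.83, 1.91 and 1.78 CPM in the Alox5-/- libraries and 3.78, 3.87 and 4.27 CPM in the WT libraries (log2 difference -1.11; edgeR adjusted p = 2.84e-06). In every library Itgav exceeded Itga2b by far. Other platelet markers were low or near the limit of detection. Pf4 had 6 counts, Gp1ba 6 and Gp5 5 over the 6 libraries, and Gp6 and Treml1 had none. The 12 megakaryocyte and platelet markers summed to 5.52 to 6.22 CPM in the Alox5-/- libraries and 7.97 to 8.70 CPM in WT, a gap that came almost wholly from Itga2b. Its other tested genes were not called, namely Vwf (log2 fold change 0.02) and Gp9 (0.03), and the median of the 3 was 0.02.

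Vcam1 had the largest difference of the 10 genes. This immunoglobulin-family adhesion molecule is induced by inflammatory cytokines in endothelium, and is found on marrow stroma and resident macrophages. Its reads numbered 571, 522 and 602 in the Alox5-/- libraries, against 132, 145 and 169 in WT. After scaling these were 18.3, 17.8 and 20.2 CPM in the Alox5-/- libraries and 4.42, 4.88 and 4.43 CPM in WT. Vcam1 rose 4.12-fold, by 2.04 on the log2 scale (SE 0.08; edgeR adjusted p = 5.36e-11), and ranged from 1.99 to 2.09 over all processing alternatives. An antisense gene, Gm43109, shares 61 of the 8870 exonic bases of Vcam1 and had no count in any library. The ligand thus rose while Itga4, the alpha chain that binds it, fell. Vcam1 over Itga4, in CPM over CPM, was 0.0841, 0.0787 and 0.0922 in Alox5-/- and 0.0157, 0.0166 and 0.0165 in WT.

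Markers of the endothelial and stromal cells that normally carry Vcam1 ranged from no count to well above Vcam1 itself. In these bulk samples a change in the number of cells of a type and a change in RNA per cell cannot be told apart. Among 11 endothelial and stromal markers, the endothelial genes Tek and Emcn had no count, Cdh5 7 and Kdr 2, and the stromal genes Cxcl12 4, Pdgfra 2 and Col1a2 2 counts over the 6 libraries. A count of 0 allows up to 0.0786 to 0.103 CPM per library, for counting error only. Lepr, of stromal cells, had 34 counts and stood at 0.225, 0.239 and 0.404 CPM in the Alox5-/- libraries and 0.167, 0 and 0.0786 CPM in WT. This list summed to 207 to 212 CPM in the Alox5-/- libraries and 184 to 187 CPM in WT, nearly all of it Pecam1 (196 and 174 CPM), which leukocytes express as well. Of its 3 tested genes 2 rose, Pecam1 (0.18) and Pdgfrb (0.22, as log2 fold changes), and Col1a1, with 84 counts, was not called. Calls in this and the other marker lists stand beside 53.8% of all tested genes called (26.8% higher and 27.0% lower). Pdgfrb, a receptor of stromal and perivascular cells, stood at 14.2, 11.7 and 13.1 CPM in the Alox5-/- libraries and 11.8, 10.3 and 11.4 CPM in WT, so its libraries overlapped. The part of such cells in the Vcam1 difference was not tested.

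Markers of macrophages were divided between genes at or near 0 and genes well detected. Vsig4, Marco and Timd4 had no count, C1qa 1, C1qb 2, C1qc 2, Spic 2 and Siglec1 3. Of the 5 of 14 macrophage markers tested, 1 rose and 2 fell, and all 14 summed to 101 to 104 CPM in the Alox5-/- libraries and 108 to 112 CPM in WT. Cd68, a lysosomal protein of phagocytes, rose by 0.47 on the log2 scale, from 33.8 to 46.9 CPM. Adgre1, the F4/80 antigen, fell by 0.39, from 43.1 to 32.9 CPM, and Slc40a1, the iron exporter of macrophages that recycle red cells, fell by 0.67, from 27.1 to 17.1 CPM. The part of macrophages in the Vcam1 difference was not tested. Of 10 dendritic cell markers, which bear on Itgax, 4 were tested, with 2 higher and 1 lower. The higher calls were Flt3 and H2-Aa, and the lower call was H2-Ab1 (log2 fold change -0.21). H2-Aa averaged 0.586 CPM over the Alox5-/- libraries but 0.176 CPM over WT, and only the former took it past the filter. Its call is therefore not relied on. Zbtb46 had 12 counts, Xcr1 15, Clec9a 24, Cd209a 9 and Siglech 1 over all libraries. The list summed to 32.4 to 34.4 CPM in the Alox5-/- libraries and 24.5 to 24.9 CPM in WT, mainly through Flt3, a receptor of progenitors too, at 21.4 and 11.3 CPM. The part of such cells in the Itgax difference was not tested.

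Summed, the neutrophil markers moved the same way as Itgam, with 39.6 to 40.1 CPM in the Alox5-/- libraries and 77.0 to 83.3 CPM in WT. Of 10 markers 8 were tested, with 6 lower and 1 higher and a median log2 fold change of -1.30. The lower calls include Camp (0.288 against 0.773 CPM in WT) and Mmp9 (0.223 against 0.694 CPM). Both passed the filter only through WT, where they were higher. Nothing is drawn from the calls of Camp and Mmp9 or from the median, which includes them. The granulocyte genes S100a8 (log2 fold change -1.66) and Ngp (-1.43) fell, and Ly6g (0.53) rose. Whether maturing granulocytes had a part in the Itgam difference was not tested. Mast cell and basophil markers, which bear on Itgb7 and Itga4, had 1 higher and 3 lower of 6 tested. They summed to 247 to 256 CPM in the Alox5-/- libraries and 336 to 348 CPM in WT, with Fcer1a, Prss34, Tpsab1 and Cma1 at 0. Most of the sum was Kit (136 and 160 CPM), a progenitor marker too, and Gata2 (50.5 and 47.5 CPM). Hdc had the largest gap (35.1 and 96.0 CPM). The part of mast cells and basophils in the Itgb7 and Itga4 differences was not tested. Erythroid markers summed to under 1 CPM in every library, and T, B and NK cell markers to 0.943 to 1.70 CPM. The labelled progenitor identity was checked with Kit, the c-Kit receptor, at 136 CPM in the Alox5-/- libraries and 160 CPM in WT, and Ly6a, which encodes Sca-1, at 0.763 and 1.06 CPM. Sca-1 transcript was thus barely present, while Hoxa9, Meis1 and the leukocyte gene Ptprc were abundant (147 to 337 CPM). Of the 7 stem and progenitor markers, all tested, 3 were called higher, 2 lower and 2 not called. Mpo had the widest gap, with 197 CPM for WT dropping to 65.6 CPM for Alox5-/- (log2 fold change -1.59). Kit was the other lower call (-0.23), and Cd34 (0.36), Hoxa9 (0.33) and Ptprc (0.09) were higher. The list came to 1210 to 1230 CPM (Alox5-/-) beside 1220 to 1280 CPM (WT).

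**Figure D4:**
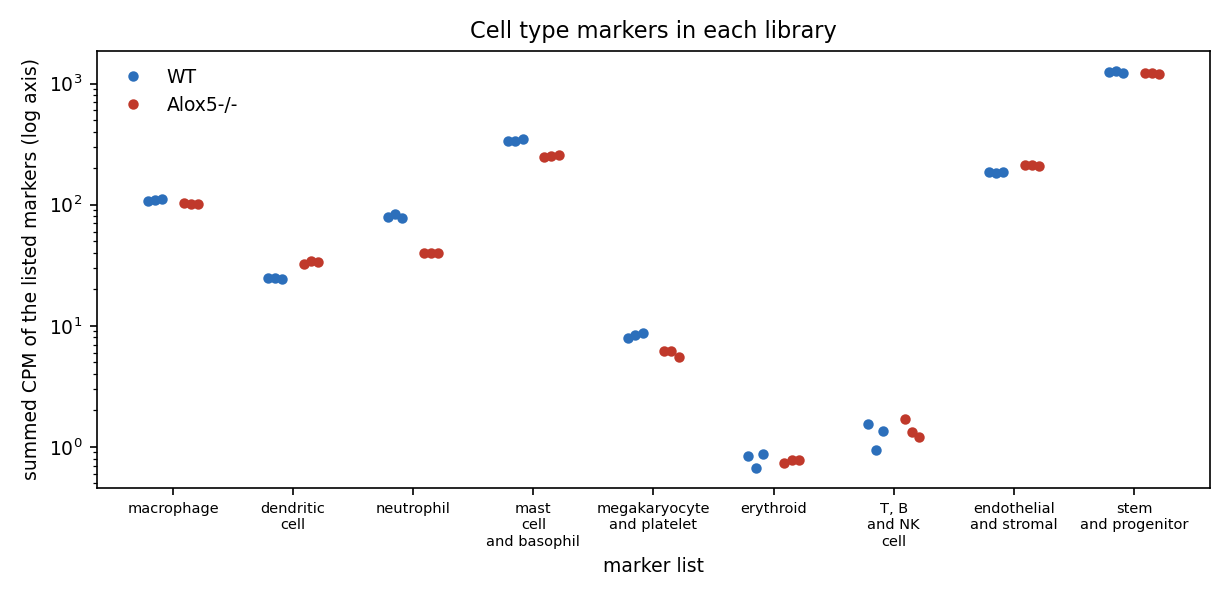
Summed CPM of each cell type marker list in every library, on a log axis. Neutrophil, mast cell, megakaryocyte and, by less, macrophage lists are lower in Alox5-/-. The dendritic cell list and the endothelial and stromal list are higher. The erythroid and lymphoid lists lie near or under 2 CPM in both genotypes.

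Levels of different members were compared as CPM per kilobase of exons not shared with another gene. In Alox5-/- the order was Itgb2 (223), Itgb1 (93.2), Itgam (58.4), Itga6 (26.4), Itgal (25.5), Itgb7 (24.5), Itga4 (17.2), Itgb3 (7.57), Itgax (2.34) and Vcam1 (2.13), with no overlap of neighbours. In WT Itga4 (21.9) and Itgal (20.7) overlapped in their libraries, and Itga4 stood before rather than after Itgal and Itgb7 (19.1). Vcam1 was last there with 0.520 CPM per kilobase. The middle of the order depends on the length chosen: by the longest coding transcript Itgam fell from the third place to seventh in Alox5-/- and sixth in WT. By that length Vcam1 (5.42) passed Itgax (2.78) in Alox5-/-, and in WT both overlapped (1.32 and 1.34). Itgb2 and Itgb1 led, in this order, in both genotypes by both lengths.

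Other integrin subunits were mostly silent or weak, and those detected split in direction. Of 17 further subunit genes 10 were tested, with 4 higher, 3 lower and 3 not called (70.0% called, beside 53.8% of all tested genes). The called genes include Itga7 and Itga9, which passed the filter through 1 genotype only, so nothing is drawn from the share called. Itga5, the fibronectin receptor chain that pairs with Itgb1, rose from 88.4 ± 1.58 CPM (WT) to 107 ± 3.20 CPM (Alox5-/-) (log2 fold change 0.27, SE 0.04; edgeR adjusted p = 1.36e-05). Itga1, a collagen receptor chain, was 5.60 ± 0.652 CPM in the Alox5-/- libraries and 8.74 ± 0.654 CPM in the WT libraries (log2 difference -0.65, SE 0.10; edgeR adjusted p = 5.48e-05). Further subunits were chosen after their values were seen. Itgad, the fourth leukocyte-specific alpha chain, was at 0.702 and 0.591 CPM and not called, and Itga11 and Itgb6 had no count. Itga9, with 63 counts in all, was at 0, 0.137 and 0.135 CPM in Alox5-/- against 0.636, 0.606 and 0.472 CPM in WT. Itga7, a laminin receptor chain with 100 counts, was at 0.762 against 0.320 CPM. Itga9 was called lower and Itga7 higher. Each passed the filter only through the genotype where it was higher, and both are too low for the stricter filter. Nothing is drawn from these calls.

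Of 25 counter-receptors and matrix ligands other than Vcam1, 12 were tested and 13 had too few reads. Of the 12, 7 fell, 3 rose and 2 missed the threshold (list median -0.22 on the log2 scale), where 27.0% of all tested genes fell and 26.8% rose. Icam2, a ligand of LFA-1, was 77.7 ± 0.275 CPM in the Alox5-/- libraries and 97.8 ± 4.44 CPM in the WT libraries (log2 difference -0.33; edgeR adjusted p = 3.71e-06). Icam1, chosen after its values were seen, is like Vcam1 an inducible counter-receptor of the immunoglobulin family, and it moved the other way, from 38.1 ± 1.70 CPM (WT) to 31.6 ± 0.629 CPM (Alox5-/-) (log2 fold change -0.27; edgeR adjusted p = 0.000259). C3, whose fragment Mac-1 binds, fell by 0.32. F11r, the junctional adhesion molecule that LFA-1 can bind, rose from 5.85 to 11.7 CPM, and Lama5, a laminin chain, rose by 1.33.

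Genes that switch integrins on were divided. In the activation and adhesion complex list, 7 of 27 tested genes rose, 10 fell and 10 were not called (median -0.01). The 63.0% called is near the 53.8% of all tested genes (26.8% higher and 27.0% lower). Rasgrp2, the exchange factor that activates Rap1 upstream of talin, was 218 ± 6.50 CPM in the Alox5-/- libraries and 298 ± 8.69 CPM in the WT libraries, which is a log2 difference of -0.45 (edgeR adjusted p = 4.60e-08). Flna, the filamin that binds beta tails, was 944 ± 20.7 against 1270 ± 12.9 CPM (log2 fold change -0.43), and Vcl, vinculin, fell by 0.38. Cd47, which associates with integrins and also restrains phagocytosis, rose by 0.38. Tln1 (-0.24), the talin that unlocks integrins, and Fermt3 (-0.16), the kindlin of blood cells, were chosen after their values were seen and were both called lower. The Rap1 GTPases Rap1a (0.26) and Rap1b (0.20), chosen in the same way, were called higher.

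Of 21 tested kinases and adaptors that signal from integrins, 8 rose, 4 fell and 9 were not called (median -0.01). The share called, 57.1%, is near the 53.8% of all tested genes. Fyn, a Src-family kinase, was 52.9 ± 1.30 CPM in the Alox5-/- libraries and 30.4 ± 0.627 CPM in the WT libraries (log2 difference 0.80; edgeR adjusted p = 1.53e-09). Ptk2, focal adhesion kinase, rose by 0.57 and Pik3cg, a phosphoinositide kinase of leukocytes, by 0.36, while Vav1, an exchange factor for Rac, fell by 0.25. In the selectin list 1 of 9 tested genes rose, 3 fell and 5 were not called, so 44.4% were called. Glg1 (log2 fold change 0.08; edgeR adjusted p = 0.0545) and Gcnt1 (0.14; 0.0505), chosen after their values were seen, narrowly missed the threshold. Under several processing alternatives 6 genes of this list were called, so its place beside the 53.8% depends on the processing. St3gal4, a sialyltransferase that builds selectin ligands, fell by 0.37 and the hyaluronan receptor Cd44 by 0.22, and the sialomucin Cd34 rose by 0.36.

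**Figure D5:**
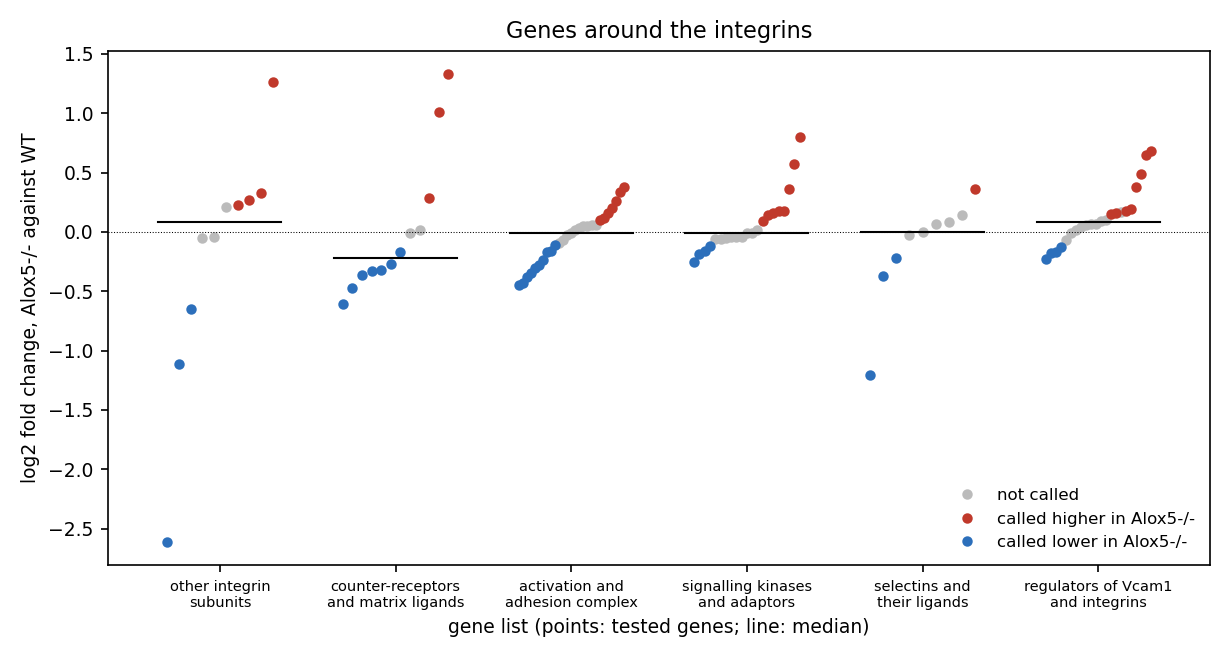
Log2 fold changes, Alox5-/- against WT, of the tested genes in 6 lists around the integrins, with points coloured by call and a line at each list's median. All lists hold genes moving in both directions, and the counter-receptor list has the lowest median (-0.22).

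Among factors known to act on the Vcam1 and myeloid integrin genes, 8 of 22 tested genes rose, 4 fell and 10 were not called (median 0.08). With 54.5% called, this list is near the 53.8% of all tested genes. Relb, an NF-kB subunit, was 3.53, 4.41 and 4.14 CPM in the Alox5-/- libraries and 2.61, 2.53 and 2.41 CPM in the WT libraries (log2 difference 0.68; edgeR adjusted p = 0.000304). Runx1, a blood cell transcription factor, rose by 0.65, and Irf8, a factor of the monocyte and dendritic lineages, by 0.38. Myb, a progenitor factor, fell by 0.23. Spi1, which encodes PU.1, chosen after its values were seen, had a log2 fold change of -0.17 (edgeR adjusted p = 0.0239) with overlapping libraries. Tnf, an inducer of Vcam1 chosen in the same way, was 25.3 ± 1.06 CPM in the Alox5-/- libraries and 25.5 ± 0.465 CPM in WT and was not called.

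Over the 6 libraries, the genes (those averaging 5 CPM or more) whose log2 CPM ran closest to Vcam1 included Lrrc8d (Pearson r 0.9997) and Litaf (0.9997). For Itgax they were Itih5 (0.9991), Snx24 (0.9990) and Txnip (0.9990). Among the 10210 genes compared, 358 had r above 0.99 with Vcam1, and the 6 libraries share the genotype difference, so these names only describe the pattern.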

How the data were processed

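The authors deposited 1 table of raw read counts per gene for 6 poly-A libraries amplified with a SMARTer kit, per the labels. HTSeq, DESeq2 and the build mm10 are named in the submitters' processing notes. For the aligner, the annotation release, the tool versions and strandedness, nothing is given in the sources used here. Gene counts were 28985597 to 38695948 per library, 60.0 to 60.9% of all reads. The 5 summary rows that name no gene were left out, namely reads aligned to several places (24.4 to 24.8%), outside genes (9.10 to 10.2%), not aligned (4.57 to 5.78%), ambiguous (0.523 to 0.547%) and of low mapping quality (0%). Replicates all differed by more than counting noise (chi-square over its degrees of freedom 2.18 to 10.3 inside a genotype, highest for pairs with Alox5-/- replicate 2).

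Differences were tested in R 4.3.3 with edgeR 4.0.16 (default filter, TMM scaling, quasi-likelihood F-test, no covariate), with Benjamini-Hochberg adjustment over all 13705 tested genes at 0.05. SE and 95% intervals came from the F statistic. The fit was also run on simulated counts, drawn from its own dispersion with changes in a small part of the genes. The genotypes here differ far more broadly, so that run does not measure error rates in these data. Alternatives were DESeq2 1.42.0, limma-voom (limma 3.58.1), other scalings and filters, a robust fit, a replicate block and leaving out each library. Subunit shares were tested with scipy 1.17.1. Lengths and overlaps came from GENCODE vM21 (mm10).

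Members, lists and tests were chosen with earlier results of these data known. Genes named from a list are its called genes of smallest p (up to 4), unless said to be chosen after their values were seen. Markers are named to show the levels of each list, and the overlapping genes because of their position. Some genes that this rule names are not reported here.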

Additional observations from a re-analysis of the deposited data

How the results depend on the processing

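Every called member kept its direction and its call under each alternative run, and Itgb2 was not called under any. Itgb1 was called without WT replicate 2 (log2 fold change 0.08), and its values with a library left out ran from 0.01 to 0.08. The count of called genes among other integrin subunits went from 7 to 4 with the stricter filter of 5 CPM in 3 libraries, since fewer of them are tested. In the selectin list it went from 4 to 6 with limma-voom, the robust fit and each of the other scalings and filters. Scaling by library totals alone shifted the median log2 fold change by 0.04 and left Itgb2 with a value of 0.00. The replicate numbers did not pair the libraries (correlations of same-numbered deviations -0.13, -0.04 and -0.01), and no library correlated best with its own number. With a replicate block 7029 genes were called in place of 7379, and Vcam1 stayed at 2.04. Depth limits what can be said of genes with a few counts, such as the stromal markers, and the overlap with Gm49368 limits the level of Itgam.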
